A study of Mus musculus with 24 samples.

Results

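The cytosines described here lie in 10 genes that neurons switch on within minutes of being stimulated, the neuronal activity immediate early genes Fos, Fosb, Junb, Egr1, Egr2, Egr3, Arc, Npas4, Nr4a1 and Nr4a2. Every cytosine of the methylation table that lay inside one of these genes or within 2000 bases of it was taken, with gene limits from the GENCODE M21 annotation of mm10 (GRCm38). This gave 845 of the 762182 cytosines in the table, and all 845 were in a CpG of the genome. The assay was reduced representation bisulfite sequencing (RRBS), a method that samples CpG-rich fragments released by the enzyme MspI, in micro-dissected dentate gyrus of single female C57BL/6JRj mice. Young STD mice (n = 5) were 1.5 months old and kept in standard cages. Aged STD mice (n = 7) were 14 months old and had stayed in standard cages, and Aged ENR mice (n = 7) were 14 months old and had lived in environmental enrichment (ENR), a large enclosure with toys that were rearranged regularly. The tissue was taken whole, so DNA of granule neurons was mixed with that of glia and blood vessels. Young ENR mice were not analysed here.

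Immediate early genes are transcribed without new protein synthesis when calcium and growth factor signals reach the nucleus, where factors such as CREB, SRF and MEF2 already sit at their promoters. Most of them encode transcription factors, which then switch on a later wave of genes for synapses and plasticity, and Arc encodes a protein that acts at the synapse itself. In the dentate gyrus they mark the few granule neurons active during exploration of an environment. Promoters of such genes are rich in CpGs, and a CpG-rich promoter is usually free of methylation whether or not the gene is being transcribed, whereas methylation within a gene is common.

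The question was whether CpG methylation at these genes differed with age or with housing, and whether the starts of the genes differed from their bodies. The promoter of a gene was taken as all cytosines within 1000 bases of any of its annotated transcription starts, the body as the remaining cytosines inside the gene, and the flank as those outside both. Of the 845 cytosines, 644 were in promoters, 143 in bodies and 58 in flanks. The loci hold 3498 CpGs, of which 744 (21.3%) were measured on at least 1 strand, from 34.2% at Egr3 and 32.3% at Egr2 down to 7.92% at Npas4 and 5.61% at Egr1. A mouse had values at 54.6% to 95.4% of the 845 cytosines, and 107 of them had a value in each of the 19 animals. Read depth per value was unknown, and reads without molecular identifiers need not be independent molecules. Where the remaining mice averaged 20% to 80% at a member cytosine, a single mouse showed exactly 0% or 100% in 8.33% to 84.6% of cases. Libraries belonged to 2 numbered series, with mice of every group in both. The mean Young STD methylation of the cytosines a mouse had values at, used here as an index of library composition, was 31.5% ± 0.632 (SD, n = 5) for Young STD. Aged STD had 26.6% ± 6.91 (SD, n = 7), and Aged ENR had 29.5% ± 3.88 (SD, n = 7). A level in this tissue averages over cell types, so a change within cells and a change in the share of a cell type cannot be told apart.

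Sequences upstream of the starts show what the activity signal is known to act on and how much of it RRBS reached. RefSeq promoter windows (GRCm38.p6, 250 bases before to 50 bases after a start) were at hand for 7 of the 10 genes, Fos, Fosb, Junb, Egr2, Npas4, Nr4a1 and Nr4a2. The core CGTCA of the cyclic AMP response element (CRE), the site bound by CREB, was found on one strand or the other in a window of all 7 genes, against 23.0% of all 27025 genes with a window (a gene can have several). The full CRE, TGACGTCA, which contains the core, was in none of the 7 and in 2.03% of all genes. The AP-1 site TGANTCA, bound by Fos and Jun proteins, was also in none of the 7, against 8.97%. A CArG box, the site of SRF, was found at Egr2 only, against 1.81%. The 150 bases before the RefSeq start, which at Nr4a1 is internal to the gene, are shown for 3 genes, 5′ to 3′ on the strand of the gene, with CRE cores in capitals on either strand: Fos (chr12:85473740-85473889, plus strand), a promoter whose cores RRBS missed, and Junb (chr8:84978749-84978898, minus strand) and Nr4a1 (chr15:101266696-101266845, plus strand), which were reached.
Fos: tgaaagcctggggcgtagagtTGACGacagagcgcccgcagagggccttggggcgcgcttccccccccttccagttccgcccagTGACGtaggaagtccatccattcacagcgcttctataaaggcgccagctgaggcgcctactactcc
Junb: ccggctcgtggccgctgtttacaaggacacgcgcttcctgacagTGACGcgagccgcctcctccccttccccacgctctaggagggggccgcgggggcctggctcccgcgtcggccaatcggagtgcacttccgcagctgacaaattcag
Nr4a1: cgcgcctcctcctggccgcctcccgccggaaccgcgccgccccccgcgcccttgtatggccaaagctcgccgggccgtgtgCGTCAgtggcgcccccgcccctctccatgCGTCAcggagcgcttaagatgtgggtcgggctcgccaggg

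Only 3 cytosines inside a CRE core carried values, and they were unmethylated in nearly every mouse. At Junb, the cytosine of the core that begins 106 bases before the RefSeq start was at 0% in all 11 mice measured. At Nr4a1, with positions counted from the internal RefSeq start, the cytosine of the core at -40 was at 0% in all 13 mice measured, and that of the core at -69 was at 0% in 12 of 13 mice and at 8.70% in an Aged ENR mouse. None of the 11 CpGs in the Fos stretch had a value, so its cores at -129 and -66 were not measured. In the stretches shown, 9 cytosines of Junb averaged 0.946% and 13 cytosines of Nr4a1 averaged 0.591%.

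Around the starts, methylation was close to 0 in every group. Over the 644 promoter cytosines, the mean level was 2.69% in Young STD, 2.63% in Aged STD and 2.54% in Aged ENR mice, 245 cytosines (38.0%) were at 0% in every mouse with a value, and 573 (89.0%) had a mean under 5%. Over the 143 body cytosines the means were 23.0%, 21.4% and 23.4% in the same order, and 46 cytosines had a mean of at least 20%. The flanks averaged 1.79% over 58 cytosines. By distance from the nearest start, the mean was 2.97% within 250 bases (292 cytosines), 1.64% from 250 to 500 bases (218 cytosines), 3.46% from 500 to 1000 bases (134 cytosines), 6.71% from 1000 to 2000 bases (146 cytosines) and 42.8% beyond 2000 bases (55 cytosines of 4 genes). Of all 845 cytosines, 695 (82.2%) had a mean under 5% and 18 a mean over 80%, against 51.0% and 20.9% of all 762182 cytosines. At 0% in every mouse with a value were 33.4% of the 845 and 22.0% of all cytosines. The 57 cytosines with a mean of 20% or more lay in 6 genes, 25 of them in Nr4a1, 18 in Nr4a2, 6 in Fos, 3 in Fosb, 3 in Npas4 and 2 in Egr2.

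**Figure D1:**
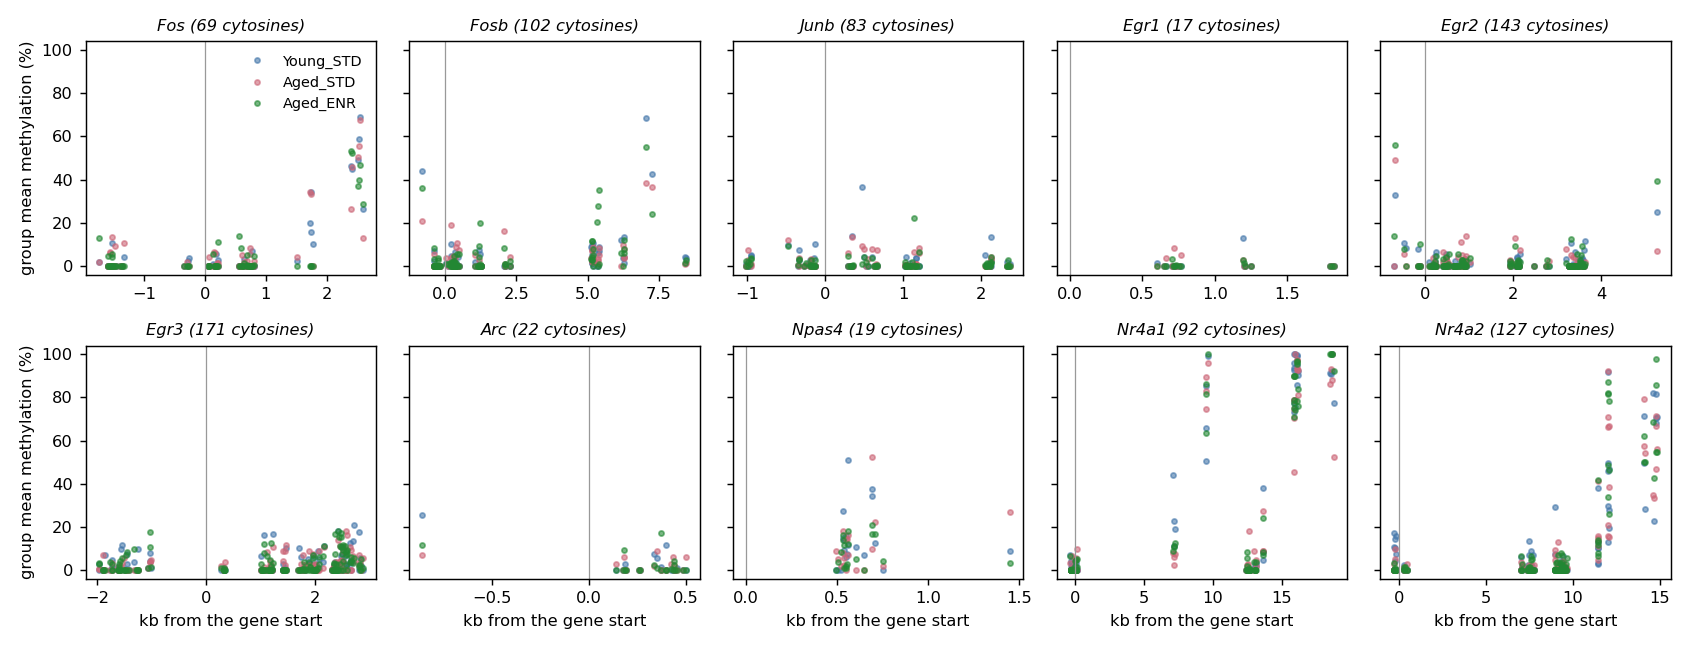
Group mean methylation (%) of each of the 845 cytosines against its distance from the gene start in kb, one panel per gene, with 1 point per cytosine and group. Points lie near 0 around the gene starts (vertical lines) in all 3 groups, and rise in the bodies of Nr4a1 and Nr4a2, at the downstream end of Fos and Fosb and within the first kb of Npas4.

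For each promoter and body with at least 3 cytosines, a level was fitted for every mouse that allows for which cytosines that mouse had, and such an adjusted level can fall slightly below 0. This gave 10 promoters and 6 bodies of the members. In order, the adjusted promoter level, averaged over 19 mice, was 10.6% at Npas4, 7.82% at Nr4a1, 2.27% at Nr4a2, 2.25% at Arc, 2.22% at Egr3, 1.62% at Junb, 1.55% at Fos, 1.55% at Fosb, 1.31% at Egr2 and 0.801% at Egr1. Among neighbours in this order, only Nr4a1 and Nr4a2 differed by more than the SD of their difference between mice (5.55 points, SD 1.33, Nr4a1 higher in 19 of 19 mice). The median promoter of all 19204 genes was at 2.28%, and 63.7% of them were under 5%, as were 8 of the 10 members. The 6 bodies stood at 64.8% (Nr4a1), 45.3% (Fos), 22.1% (Nr4a2), 8.09% (Fosb), 4.49% (Egr3) and 0.912% (Junb). The median body of all 13149 genes was at 59.5%, and 5 of the 6 member bodies were below it. The body of Nr4a2 differed from those of Fos and Fosb by more than the spread between mice, whereas the other neighbours in this order did not.

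**Figure D2:**
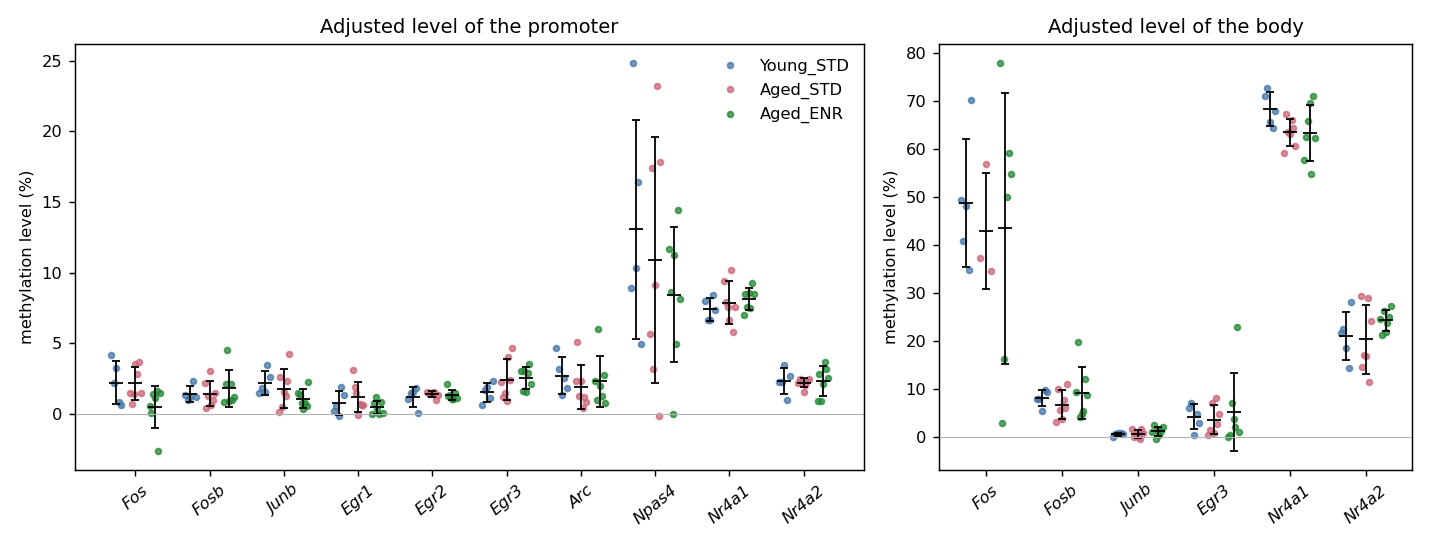
Adjusted methylation level (%) of the 10 promoters (left) and 6 bodies (right), with 1 point per mouse and the mean ± SD of each group in black, each panel with its own scale. The groups overlap at every gene, promoters other than Npas4 and Nr4a1 stay at about 6% or lower in every mouse, and the body of Nr4a1 lies between 54.9% and 72.8%.

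Among the AP-1 genes, which encode the Fos and Jun proteins that pair to bind AP-1 sites, Fos (chr12:85473890-85477273, plus strand) had 45 promoter cytosines, of which 42 averaged under 5%. Its 6 body cytosines, 2404 to 2593 bases after the start in the last coding exon and the 3′ UTR, were partly methylated, with means of 49.0% in Young STD, 43.1% in Aged STD and 43.0% in Aged ENR mice. At the cytosine of this group with a value in all mice, at position 85476311, Young STD mice ranged from 29.4% to 68.2%, whereas 1 Aged STD and 3 Aged ENR mice were at exactly 0% and 1 Aged STD and 3 Aged ENR mice at exactly 100%. Fosb (chr7:19302696-19310051, minus strand), whose shortened splice form accumulates in neurons after repeated stimulation, averaged 1.52% over 73 promoter cytosines and 8.07% over 27 body cytosines. Only 2 of the 27 had a mean of 20% or more, both in the 3′ UTR. Junb (chr8:84974484-84978718, minus strand), a Jun family partner, was low throughout, with 1.68% over 63 promoter and 0.976% over 18 body cytosines. Its body was lower than 99% of all bodies, since 0.852% of the 13149 bodies lay below it.

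The Egr genes encode zinc finger transcription factors that bind GC-rich sites. Egr2 (chr10:67535475-67542188, plus strand), with 6 annotated starts, averaged 1.31% over 142 promoter cytosines, and 60 of these were at 0% in every mouse. Its 1 upstream cytosine with a mean of 20% or more, at -664 bases from the start and measured in 15 mice, averaged 32.9% in Young STD, 49.1% in Aged STD and 56.2% in Aged ENR mice. Egr3 (chr14:70077203-70082614, plus strand) averaged 2.06% over 114 promoter, 4.44% over 21 body and 1.87% over 36 flanking cytosines, and no cytosine of the gene had a mean above 10.9%. Egr1, widely used as a marker of active neurons, had 17 measured cytosines, all in its promoter, with a mean of 0.819% and 9 of them at 0% in every mouse.

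Arc (chr15:74669083-74672570, minus strand), whose protein removes AMPA receptors from synapses and forms capsids that carry RNA, had 22 promoter cytosines with a mean of 2.25%. Of these, 21 lay 141 to 503 bases into the gene, in the 5′ UTR and coding exon. The only one upstream of the start, at -861 bases, averaged 25.4% in Young STD mice and is described further on. Npas4 (chr19:4984355-4990316, minus strand), a transcription factor induced by calcium influx that controls inhibitory synapses, was, with Nr4a1, one of the promoters above 5%. Its 18 promoter cytosines averaged 14.4% in Young STD, 10.5% in Aged STD and 8.57% in Aged ENR mice, and none was at 0% in every mouse. All 18 lay after the gene start, 492 to 753 bases into the gene, in exonic sequence and the following intron, and no cytosine nearer the start had a value. The stretch with 17 of them (chr19:4989552-4989820) is shown on the strand of the gene, minus, because Npas4 had the highest mean promoter level of the 10 genes, with each CpG that has a measured cytosine in capitals.
Npas4: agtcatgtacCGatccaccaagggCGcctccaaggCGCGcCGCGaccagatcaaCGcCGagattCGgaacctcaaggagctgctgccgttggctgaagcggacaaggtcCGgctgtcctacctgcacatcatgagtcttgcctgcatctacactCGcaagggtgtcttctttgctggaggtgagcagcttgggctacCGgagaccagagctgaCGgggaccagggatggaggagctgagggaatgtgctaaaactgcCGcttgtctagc

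The adjusted level of the Npas4 promoter was 8.88%, 24.8%, 10.3%, 16.4% and 4.95% in the 5 Young STD mice. It ranged from -0.174% to 23.2% (median 9.14%) in Aged STD and from 0% to 14.4% (median 8.65%) in Aged ENR mice. The groups overlapped over most of their range, and a mouse had values at 5 to 18 of the 18 cytosines.

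Nr4a1 and Nr4a2 encode orphan nuclear receptors, transcription factors without a known ligand that take part in memory and metabolism. Nr4a1 (chr15:101254269-101274795, plus strand) had the most methylated body, with means of 68.7%, 63.3% and 63.5% over 25 cytosines in Young STD, in Aged STD and in Aged ENR, and 13 of the 25 had a mean over 80%. Its promoter level of 7.82% came from 5 of 67 cytosines with a mean of 20% or more. All 5 lay in a coding exon 18490 to 18756 bases after the gene start, near an internal start, and 34 of the 67 were at 0% in every mouse. Nr4a2 (chr2:57106830-57124003, minus strand) averaged 2.26% over 83 promoter and 22.0% over 44 body cytosines. The 17 body cytosines at 20% or more lay 12031 to 14878 bases after the start, in coding exons and introns, apart from 25 body cytosines with a mean under 5%.

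Promoter and body were compared within each mouse for the 6 genes with both. The promoter was lower than the body in every mouse at 3 of them, Nr4a1, Nr4a2 and Fos, against 73.1% of the 9119 genes with both regions. The difference was -57.0 points ± 4.73 (SD, n = 19) at Nr4a1 and -19.8 points ± 5.27 (SD, n = 19) at Nr4a2. At Fos it was -43.9 points ± 19.8 (SD, n = 14). With promoters taken around the gene start only, it was -35.6 points at Nr4a1 and -9.90 points at Nr4a2. Over the cytosines of Nr4a2 with a value in all 19 mice, 19 in the promoter and 5 in the body, the difference was 4.77 points, and none of the 17 body cytosines with a mean of 20% or more was among these 5. Fosb had a difference of -6.54 points ± 4.17 (SD, n = 19), lower in 18 of 19 mice. Egr3 (-2.27 points ± 4.95, SD, n = 19, lower in 13 of 19 mice) and Junb (0.710 points ± 1.36, SD, n = 19, lower in 5 of 19 mice) did not differ beyond the spread between mice, and the Egr3 value was -1.32 points without Aged ENR mouse 6. The median over all 9119 genes was -44.7 points. At Nr4a1, the gap between promoter and body was -61.0 points ± 3.81 (SD, n = 5) for Young STD, -55.7 points ± 3.24 (SD, n = 7) for Aged STD and -55.4 points ± 5.32 (SD, n = 7) for Aged ENR, with unadjusted exact permutation p = 0.0253 for Aged against Young STD and p = 0.0707 for Aged ENR against Young STD. At Junb, the gap was 1.49 points ± 0.693 (SD, n = 5), 1.07 points ± 1.69 (SD, n = 7) and -0.208 points ± 0.878 (SD, n = 7) in the same order, with unadjusted exact permutation p = 0.00505 for Aged ENR against Young STD. These were the lowest p-values over 6 genes and 3 comparisons.

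Differences between groups were then tested with limma over all promoters and bodies of the table, with Benjamini-Hochberg adjustment over all of them. In Aged STD against Young STD mice, 0 of the 16 member regions passed an adjusted p under 0.05, as did 0 (0.0%) of all 31533 regions, and 0 of the 16 had an unadjusted p under 0.05 against 8.33% of all regions (6.87% lower and 1.47% higher). The member promoters differed by -2.18 to 0.892 points (median -0.0196) and the member bodies by -5.76 to 0.0181 points (median -0.971, against -3.07 over all 12614 bodies). Of the 10 promoters, 9 had a 95% confidence interval within 3 points of 0 and 6 within 2 points, and the exception was Npas4 (-2.18 points, 95% confidence interval -11.9 to 7.51). The direction at Npas4 was not stable, with -5.82 points in library series 27 and 2.95 points in series 37, 2.74 points with library composition in the model, and -4.23 to 0.763 points without 1 mouse at a time. The largest difference was that of the Fos body. It stood at 49.5%, 41.0%, 48.2%, 34.9% and 70.2% in Young STD and at 37.3%, 56.9% and 34.8% in the 3 Aged STD mice with a level. Aged STD mice thus lay within the Young STD range or at its lower end, and the difference of -5.76 points ± 8.71 (SE) was not significant (limma, adjusted p = 0.857). It was 0.881 points in series 27 and -17.8 points in series 37. It was -0.395 points without Young STD mouse 5, -9.23 points without Young STD mouse 4, -12.7, -2.91 and -1.64 points without Aged STD mouse 4, 1 and 7, and 4.93 points with the replicate block. With library composition in the model it was -15.8 points, and with promoters of 500 bases, which enlarge the body, -11.6 points. For the Nr4a1 body, Young STD mice were at 64.6% to 72.8% and Aged STD mice at 59.4% to 67.4%, with overlap. The difference was -4.86 points ± 2.67 (SE) with exact permutation p = 0.0278, a lower value than limma's unadjusted p of 0.0924, and limma adjusted p = 0.644. It was -6.45 points in series 27 and -2.50 points in series 37.

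In Aged ENR against Aged STD mice, 0 of 16 member regions and 0 (0.0%) of all 31506 passed the adjusted threshold, and 1 of 16 had an unadjusted p under 0.05 (4.3% of all regions, 1.47% lower and 2.83% higher). This was the Fos promoter. Its adjusted level ranged from 0.656% to 3.68% (median 1.48%) in Aged STD and from -2.62% to 1.59% (median 1.09%) in Aged ENR mice, so the Aged ENR mice were in the lower part of a shared range, and the lowest value came from a mouse with 10 of the 45 cytosines. The difference was -1.64 points ± 0.700 (SE) with exact permutation p = 0.0297 and limma adjusted p = 0.961. It was -0.989 points in series 27 and -2.52 points in series 37, and 0.0309 points when only cytosines around the first start of the gene were used. The other promoters differed by -2.46 to 0.388 points, and the bodies by -0.0833 to 3.93 points. The Npas4 promoter differed by -2.46 points (95% confidence interval -9.92 to 4.996), with -0.965 points in series 27, -4.46 points in series 37, -4.31 to -0.409 points without 1 mouse at a time, and -5.05 points with library composition in the model.

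In Aged ENR against Young STD mice, 0 of 16 member regions and 0 (0.0%) of all 31709 passed the adjusted threshold, and 1 of 16 had an unadjusted p under 0.05 (6.66% of all regions, 4.94% lower and 1.72% higher), the Junb promoter. It stood at 1.47%, 1.83%, 1.56%, 3.44% and 2.62% in Young STD mice and ranged from 0.354% to 2.25% (median 0.788%) in Aged ENR mice. Of the 7 Aged ENR mice, 6 lay below the lowest Young STD mouse and 1 within the Young STD range. The difference was -1.13 points ± 0.488 (SE), with exact permutation p = 0.0303 and limma adjusted p = 0.733. It was -0.649 points in series 27 and -1.86 points in series 37, and turned to 0.204 points over cytosines measured in all 19 mice. The Egr3 promoter was at 0.584% to 2.28% in Young STD and at 1.50% to 3.51% in Aged ENR mice, with overlap, a difference of 1.02 points ± 0.505 (SE) with exact permutation p = 0.0455, limma's unadjusted p of 0.0649 and limma adjusted p = 0.762. The Npas4 promoter differed by -4.64 points (95% confidence interval -11.8 to 2.57), with -6.79 points in series 27, -1.51 points in series 37, -6.67 to -1.70 points without 1 mouse at a time, and -4.25 points with library composition in the model. These comparisons share mice, so they are not separate evidence.

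**Figure D3:**
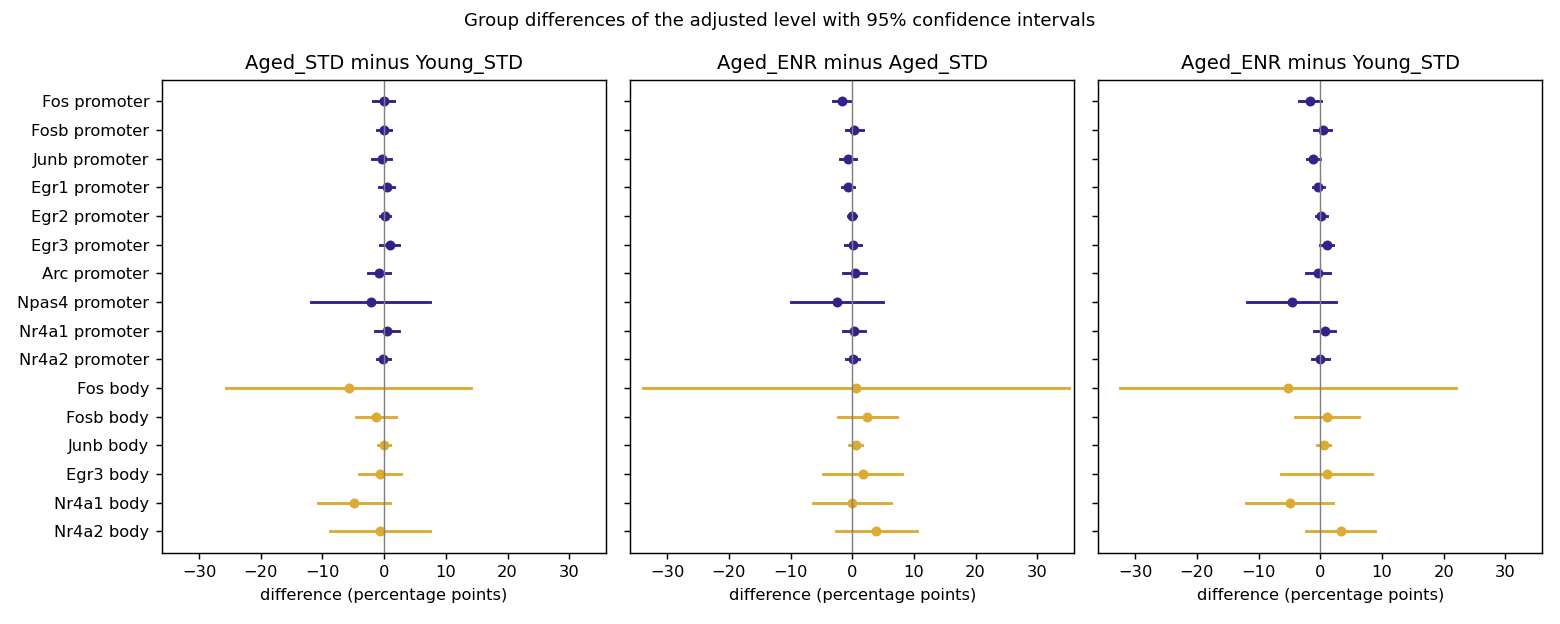
Group differences of the adjusted level in percentage points with 95% confidence intervals from limma, for the 10 promoters (dark) and 6 bodies (yellow), one panel per comparison. Most promoter intervals stay within 3 points of 0, those of Npas4 reach -11.9 points, and those of the Fos body reach 35.1 points.

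Single cytosines gave the same counts of called differences. In none of the 3 comparisons did a member cytosine pass an adjusted p under 0.05 with a difference over 25 points (limma, 0 of 478, 0 of 496 and 0 of 458 tested, and 0.0% of all cytosines in each). In Aged STD against Young STD mice, 5 member cytosines were lower at an unadjusted p under 0.05 (3.33% of all) and 2 were higher (1.09% of all), which is 1.05% and 0.418% of the 478 (together 7, against 4.42% of all). Differences over 25 points were found at 10 member cytosines lower (7.22% of all) and 2 higher (2.17% of all). Between Aged ENR and Aged STD mice, 3 were lower (0.798% of all) and 1 higher (1.45% of all, 2.25% in either direction) at an unadjusted p under 0.05, and 3 were lower (2.66% of all) and 8 higher (4.56% of all) by over 25 points, of 496. Between Aged ENR and Young STD mice, 10 were lower (2.56% of all) and 2 higher (1.4% of all, 3.95% in either direction) at an unadjusted p under 0.05, and 6 were lower (5.23% of all) and 6 higher (2.4% of all) by over 25 points, of 458.

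Among member cytosines with a value in every mouse compared and an unadjusted p under 0.05, the lowest difference between Aged and Young STD was found at -861 bases from the start of Arc, at position 74673431 of chromosome 15, on the plus strand. It was methylated at 20%, 21.4%, 26.98%, 22.8% and 35.6% in Young STD mice. It was at 0% to 15.9% (median 7.29%) in Aged STD and at 0% to 24.7% (median 8.75%) in Aged ENR mice. Aged STD mice all lay below the Young STD mice. Groups without overlap, in either direction, were found at 1 of 110 member cytosines and at 0.432% of all 83499 cytosines measured in these mice and not at 1 value throughout. The difference was -18.1 points ± 5.05 (SE) with exact permutation p = 0.00253 and limma adjusted p = 0.760, and it was -16.3 points in series 27 and -20.9 points in series 37. Aged ENR mice overlapped with Young STD mice, with a difference of -13.8 points ± 6.29 (SE, exact permutation p = 0.0202, limma adjusted p = 0.776). With library composition in the model it was -11.2 points. The difference was -15.8 points in series 27 and -11.6 points in series 37. Aged ENR and Aged STD mice overlapped at all 128 member cytosines compared in this way, against 0.0162% of all that did not.

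An intron of Nr4a1 held the other cytosine whose groups did not overlap, at position 101261396 of chromosome 15, on the plus strand, 7127 bases after the gene start. It was methylated at 28.6%, 27.4%, 33.3%, 33.3% and 97.1% in Young STD mice. It ranged from 0% to 26.7% (median 0%) in Aged ENR mice and from 0% to 30.2% (median 0%) in the 6 Aged STD mice with a value. Groups without overlap, in either direction, were found at 1 of 102 such member cytosines and at 0.323% of all 97752. All 7 Aged ENR mice lay below the Young STD mice, with a difference of -35.2 points ± 12.9 (SE, exact permutation p = 0.00253, limma adjusted p = 0.776). It was -23.1 points in series 27 and -53.7 points in series 37, and -21.9 points without the highest Young STD mouse, which was in the latter. The intron holds other measured cytosines close by, and the stretch is shown on the plus strand (chr15:101261381-101261467), with the 3 measured CpGs in capitals, because they form a cluster described further on.
Nr4a1 intron: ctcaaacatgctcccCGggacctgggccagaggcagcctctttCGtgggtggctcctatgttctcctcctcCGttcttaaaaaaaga

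The remaining cytosines named by the same rule had smaller differences. In an intron of Nr4a2, at position 57112533, Young STD mice were at 0% to 6.25% and Aged STD mice at 5.56% to 16.9%, with a small overlap and a difference of 8.07 points ± 2.77 (SE, exact permutation p = 0.00758, limma adjusted p = 0.760). The difference was 7.72 points in series 27 and 8.87 points in series 37. At 2 cytosines of Fosb, 1 in the 3′ UTR (position 19303802) and 1 in a coding exon (19304872), all 7 Aged ENR mice were at 0%. Aged STD mice ranged from 0% to 26.9% (median 4.59%) at the first and from 0% to 29.4% (median 6.12%) at the second, with 3 of the 7 also at 0% at each, and the differences were -9.64 points ± 4.22 and -9.01 points ± 4.18 (SE), with exact permutation p = 0.0699 at each. Without Aged STD mouse 2, the latter was -5.61 points. Within series 27 and 37, these differences were -2.86 and -18.7 points at the first and -12.6 and -4.23 points at the second. Upstream of Egr3, at position 70076165, Aged STD mice ranged from 0% to 25.2% (median 0%) and Aged ENR mice from 0% to 39.1% (median 14.3%), a difference of 13.9 points ± 5.93 (SE, exact permutation p = 0.0408), or 13.4 points within series 27 and 14.6 points within series 37. All 3 had an adjusted limma p of 0.769.

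**Figure D4:**
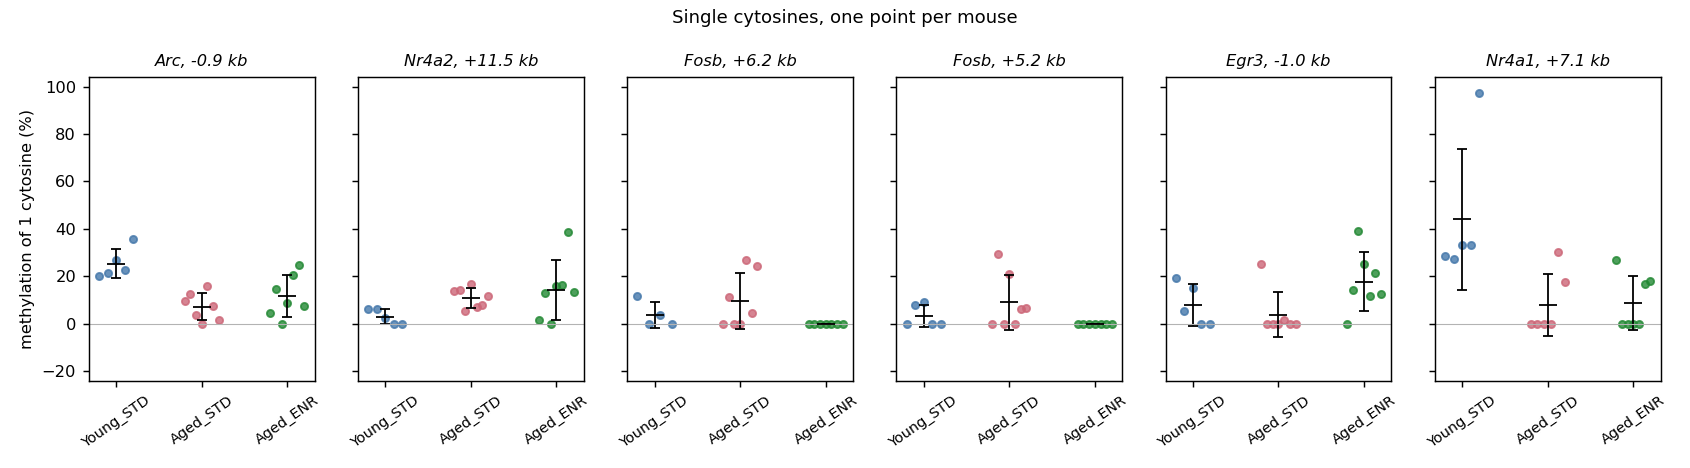
Methylation (%) of the 6 single cytosines named by the rule, with 1 point per mouse and the mean ± SD of each group in black, titled by gene and distance from the gene start in kb. The Arc cytosine is at 20% or more in all 5 Young STD mice and at 15.9% or less in all 7 Aged STD mice, and 1 Young STD mouse at Nr4a1 stands far above the others.

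Runs of cytosines were also examined, after the data had been seen, as clusters of at least 3 cytosines no more than 100 bases apart over the whole table. Of 58 member clusters tested, 0 passed an adjusted limma p under 0.05 in any comparison, against 0.00137%, 0.0% and 0.0% of all clusters in Aged against Young STD, Aged ENR against Aged STD and Aged ENR against Young STD mice. At an unadjusted p under 0.05, 4 were lower (4.35% of all) and 2 higher (1.82% of all, 6.16% in either direction) in the first comparison, 1 lower (1.55% of all) and 0 higher (2.39% of all, 3.94% in either direction) in the second, and 3 lower (3.42% of all) and 0 higher (2.13% of all, 5.55% in either direction) in the third.

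The 3 cytosines of the Nr4a1 intron formed the member cluster with the lowest unadjusted p in Aged against Young STD mice. Its level was 22.3%, 32.4%, 15.4%, 27.3% and 32.4% in Young STD mice, from 0% to 20.8% (median 0%) in 6 Aged STD and from 0% to 33.9% (median 10.4%) in Aged ENR mice. In 4 of 6 Aged STD and 3 of 7 Aged ENR mice it was at 0%. The difference was -20.5 points ± 4.96 (SE) for Aged against Young STD (exact permutation p = 0.00866, limma adjusted p = 0.509). Series 27 gave -23.4 points, series 37 gave -13.5 points, and the model with library composition gave -17.3 points. For Aged ENR against Young STD it was -15.7 points ± 6.07 (SE, exact permutation p = 0.0404, limma adjusted p = 0.864). Series 27 gave -12.0 points, series 37 gave -21.1 points, and the model with library composition gave -13.5 points. A cluster of 8 cytosines in a coding exon of Nr4a1, 15854 to 15950 bases after the gene start, differed in the same direction, with means of 91.3% ± 8.48 (SD, n = 5) for Young STD, 74.3% ± 11.5 (SD, n = 6) for Aged STD and 79.7% ± 19.7 (SD, n = 7) for Aged ENR. Aged and Young STD differed by -16.9 points ± 5.93 (SE, exact permutation p = 0.0303, limma adjusted p = 0.732). Series 27 gave -14.3 points and series 37 gave -22.8 points. The other 3 clusters in the Nr4a1 body differed by 15.04 points ± 8.65 (intron, 101263745 to 101263794, exact permutation p = 0.134), -1.89 points ± 4.13 and -0.643 points ± 3.28 (SE). The first of these was 2.51 points in series 27 and 33.9 points in series 37, and 9.59 to 20.4 points without 1 mouse at a time.

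The remaining member clusters with an unadjusted p under 0.05 in Aged against Young STD mice had small differences. An Egr2 intron cluster of 32 cytosines was at 0.366% in Young STD and 1.63% in Aged STD mice, and a Fosb exon cluster of 4 at 0% and 4.29% (exact permutation p = 0.238). The Fosb difference was 5.36 points in series 27, 0 points in series 37 and 7.76 points with library composition in the model. Nr4a2 had an intron cluster of 22 cytosines at 1.96% and 0.404%, and an upstream cluster of 18 at 4.45% and 0.913%. Only 3 Young STD mice had a level at the upstream cluster (1.98%, 2.59% and 8.78%), all in series 27, so series 37 gave no value there. Its difference of -3.54 points (exact permutation p = 0.0714) was -1.37 points without the highest of them. That upstream cluster was at 0.0899% in Aged ENR mice and was also among those with an unadjusted p under 0.05 against Young STD (-4.36 points, and -2.19 points without the same mouse). All had limma adjusted p of 0.732 or more.

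In Fos, 4 cytosines in the coding stretch for the part of the protein that contacts DNA, 1727 to 1772 bases after the gene start, formed the member cluster with an unadjusted p under 0.05 in Aged ENR against Aged STD mice. The stretch is shown on the plus strand (chr12:85475602-85475677), with the 4 measured CpGs in capitals, because all Aged ENR mice had the same values there. These 4 cytosines are among the 45 of the Fos promoter, since they lie within 1000 bases of an internal start, so the differences of the cluster and of the promoter are not separate results.
Fos coding exon: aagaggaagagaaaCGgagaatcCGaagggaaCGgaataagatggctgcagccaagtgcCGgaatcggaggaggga

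All 7 Aged ENR mice were at 0% at all 4 CpGs. The 3 Young STD mice with values had cluster levels of 26.5%, 21.3% and 12.1%, and the 3 Aged STD mice with values had 0.833%, 25% and 25%. Of these Aged STD mice, 2 owed their level to 1 CpG at exactly 100%, a different one in each, with the other 3 CpGs at exactly 0%, and the third was at 3.33% at 1 CpG. The difference of Aged ENR from Aged STD mice was -16.9 points ± 4.32 (SE, exact permutation p = 0.0167, limma adjusted p = 0.923), and that from Young STD mice was -20.0 points ± 2.41 (SE, adjusted limma p = 0.0924). The former was -12.9 points in series 27 and -25 points in series 37. All 3 Young STD mice with a level were in series 27, so the latter has no value within series 37. With library composition in the model these were -17.9 and -19.8 points.

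Other genes of the same response were low at their starts too. Among 23 other activity-induced genes, such as Jun, Egr4, Nr4a3, Dusp1, Homer1 and Bdnf, the median promoter level was 1.53%, and 21 of 23 promoters were under 5%. In limma, 0 of these 23 promoters had an unadjusted p under 0.05 in any comparison (of all promoters, 4.43% were lower and 1.66% higher in Aged against Young STD, 1.71% and 2.48% in Aged ENR against Aged STD, and 3.53% and 1.79% in Aged ENR against Young STD), and their median differences were 0.125, -0.192 and 0.113 points. The 17 measured bodies of this list had a median level of 16.7%. In Aged against Young STD mice, 1 of 17 was lower (10.5% of all bodies, with 1.17% higher) at an unadjusted p under 0.05, that of Plk2, a kinase that weakens synapses after strong activity, by -33.2 points ± 8.20 (SE, limma adjusted p = 0.411). The Plk2 body had 7 cytosines, and only 4 Young STD and 4 Aged STD mice had a level there. For Aged ENR against Aged STD, 1 of 17 was lower (1.1% of all bodies), that of Klf4 (-2.71 points ± 1.09, SE, limma adjusted p = 0.961). In Aged ENR against Young STD mice, 1 of 17 was lower (7.04% of all bodies) and 1 higher (1.61% of all bodies) at an unadjusted p under 0.05. These were Homer1, which encodes a scaffold of synapses (-18.0 points ± 5.66, SE, limma adjusted p = 0.610), and Nr4a3, the third receptor of the Nr4a family (4.99 points ± 2.19, SE, limma adjusted p = 0.738). The Homer1 body had 6 cytosines and that of Nr4a3 had 35.

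The promoters of the factors that act upstream, 10 of 11 genes measured, had a median level of 1.49%, all under 5%, and 0 of 10 had an unadjusted p under 0.05 in any comparison. Of all promoters, 4.43% were lower and 1.66% higher in Aged against Young STD. The shares were 1.71% and 2.48% in Aged ENR against Aged STD, and 3.53% and 1.79% in Aged ENR against Young STD. Of the 8 measured bodies of these upstream factors, 4 were lower in Aged against Young STD mice at an unadjusted p under 0.05 (10.5% of all bodies), and the median difference was -8.98 points against -3.07 over all bodies. These were Creb1, which encodes CREB itself (-21.1 points ± 6.42, SE), its coactivators Crtc1 (-19.7 points ± 5.81, SE) and Crebbp (-23.5 points ± 8.59, SE), and the SRF cofactor Mrtfa (-15.2 points ± 4.84, SE), with adjusted limma p from 0.442 to 0.531. The 4 bodies had 5 (Creb1), 9 (Crtc1), 8 (Crebbp) and 13 (Mrtfa) measured cytosines, so a level covers part of a gene only. The same 4 bodies were lower in Aged ENR against Young STD mice (7.04% of all bodies), by -27.9, -19.9, -18.9 and -20.1 points in that order, with limma adjusted p from 0.348 to 0.507. For Aged ENR against Aged STD, 1 of 8 was lower (1.1% of all bodies), that of Srf (-2.03 points ± 0.817, SE, limma adjusted p = 0.961). The 2 comparisons with Young STD share those mice.

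Marker genes of the tissue were read for context. The promoters of 4 granule neuron genes, among them Prox1 and Rbfox3, had a median level of 1.39%. The medians were 8.88% over 3 oligodendrocyte, 16.4% over 4 astrocyte and 4.88% over 2 endothelial promoters, and the only microglial promoter measured was at 14.8%. The mean over the granule neuron promoters was 1.03% to 2.60% in Young STD, 0.698% to 2.15% in Aged STD and 0.306% to 2.02% in Aged ENR mice, and that over the astrocyte promoters 13.3% to 19.4%, 11.1% to 21.1% and 13.6% to 21.7%. At an unadjusted p under 0.05, 5 of 19 measured marker bodies were lower in Aged against Young STD mice (10.5% of all bodies), those of Prox1, Mbp, Gja1, Flt1 and Pecam1. In Aged ENR against Aged STD mice, 1 of the 19 bodies was higher (3.36% of all bodies), that of Gja1 by 25.6 points ± 8.22 (SE), and 1 of 14 marker promoters was lower (1.71% of all promoters), that of Rbfox3 by -1.46 points ± 0.540 (SE). In Aged ENR against Young STD mice, 1 of the 19 bodies was lower (7.04% of all bodies), that of Mbp by -7.58 points ± 3.24 (SE), and these 3 had adjusted limma p of 0.729 or more. The part of cell composition in the differences given above was not tested.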

How the data were processed

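The deposited table gives the percent of methylated reads per cytosine and mouse. Per the labels and the published methods, the authors trimmed the reads (Trim Galore), aligned them to the mm10 genome by Bismark and read out methylation using methylKit, keeping values with at least 10 reads and cytosines covered in at least 3 mice per group. It holds no read numbers, so no test on reads was made and depth is unknown. Region levels were least squares mouse terms plus the mean cytosine term. Percent values and levels were tested with limma 3.58.1 (R 4.3.3), letting the variance depend on mean level, in two-sided tests adjusted by Benjamini-Hochberg over all cytosines or regions tested. The code was tested on simulated data. Exact permutation tests were two-sided (scipy 1.17.1).

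The 10 genes, the lists and the rules were chosen with earlier results of these data known. By the naming rule, all 10 members were described, with member regions at an unadjusted p under 0.05 or else the one with the largest difference. Single cytosines were up to 2 per direction with the lowest and highest differences among those at an unadjusted p under 0.05 with a value in every mouse compared, plus cytosines in CRE cores (CGTCA). Genes of the other lists at an unadjusted p under 0.05, and the clusters, were named after their values were seen. The Nr4a1 body and the Egr3 promoter were added outside the rule, with an exact permutation p under 0.05 but limma's unadjusted p over 0.05. Group differences of the Npas4 promoter were also given outside the rule. Promoter sequences were taken from RefSeq and other stretches from the GRCm38 genome. The number of sample columns that matched no described sample was 0. P-values set a difference between groups against the spread between mice within them, with each mouse taken as independent. Per the published methods mice were housed in groups, and the spread between cages or enclosures was not measured apart.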

Additional observations from a re-analysis of the deposited data

Results flagged for a closer look

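In 11 of 63 groups tested (17.5%), a mouse lay far from the others of its group, where chance alone flags about 1 in 20 groups. Among promoters, these were Fosb in Young STD mouse 4 (2.34%) and Aged ENR mouse 3 (4.499%), Egr2 in Aged STD mouse 6 (0.951%) and Aged ENR mouse 1 (2.11%), Arc in Aged STD mouse 2 (5.09%) and Aged ENR mouse 3 (6.03%), and Fos in Aged ENR mouse 6 (-2.62%), which had values at 10 of the 45 cytosines. The Egr3 body stood at 22.9% in Aged ENR mouse 6, with the next mouse at 7.13%. Among single cytosines, that of Nr4a2 at position 57112533 was at 38.7% in Aged ENR mouse 6, that of Egr3 at 70076165 at 25.2% in Aged STD mouse 1, and that of Nr4a1 at 101261396 at 97.1% in Young STD mouse 5. Aged ENR mouse 6 had the fewest member cytosines with a value, 461 of 845. Without 1 mouse at a time, the Nr4a1 difference of Aged ENR from Young STD mice ranged from -39.4 to -21.9 points and the Egr3 difference of Aged ENR from Aged STD mice from 10.4 to 17.5 points.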

How the results depend on the processing

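No member cytosine was called under 7 alternatives (on the logit scale, by its adjusted p and a difference over 25 points), and no promoter or body under 11 or without any 1 mouse. Clusters were tested in a single fit per comparison, also with no call. Comparisons are given in the order Aged against Young STD, Aged ENR against Aged STD, Aged ENR against Young STD. Member cytosines with an unadjusted p under 0.05 (7, 4 and 12) numbered 24, 12 and 23 with the composition index in the model, 18, 10 and 24 with all 3 groups in the fit, 1, 2 and 2 among cytosines measured in every mouse compared, and 7 on a logit scale for Aged ENR against Aged STD. With the index, these were 5.02%, 2.42% and 5.02% of the members tested, against 4.72%, 3.13% and 4.78% of all cytosines in that fit, with all 3 groups 3.77%, 2.02% and 5.24% against 5.66%, 3.37% and 5.01%, when measured in every mouse 0.909%, 1.56% and 1.96% against 5.28%, 2.0% and 4.87%, and on the logit scale 1.43% against 2.94%. Those differing by over 25 points (12, 11 and 12) numbered 0, 2 and 2 when measured in every mouse compared, and 20 and 22 with the index in both comparisons with Young STD. Without 1 mouse at a time, these ranged over 3 to 15, 2 to 6 and 9 to 23, and over 10 to 18, 5 to 16 and 10 to 19. For counts over 25 points in the alternatives, and for counts without a mouse, shares of all cytosines are not given. Those counts are descriptions only.

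Member regions with an unadjusted p under 0.05 numbered 0, 1 and 1 of 16 in the main fits, against 8.33%, 4.3% and 6.66% of all regions. Without the variance trend they numbered 1, 0 and 0. For Aged ENR against Aged STD they numbered 0 with the composition index, with plain means (all cytosines, or those measured in all 19 mice), with promoters of 500 bases and around the gene start only. For Aged ENR against Young STD they numbered 2 with the index, with strands averaged and around the gene start only, and 0 over cytosines measured in all 19 mice. Without 1 mouse at a time, promoters and bodies ranged over 0 to 0, 0 to 1 and 0 to 2. Shares of all regions are not given for these alternatives, so the counts are descriptions only. Clusters, added after seeing the data, gave 6 and 3 in the comparisons with Young STD and were not counted without a mouse. The Fos promoter difference became 0.0309 points around the gene start only and the Junb promoter difference 0.204 points over cytosines measured in all 19 mice. Promoter minus body was -52.2 (500 bases) and -35.6 points (gene start only) at Nr4a1, and -9.90 (gene start only) and 4.77 points (cytosines measured in all 19 mice) at Nr4a2. The cause of these shifts was not tested.

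The labels used here tie replicate numbers to no litter or cage, and deviations of same-numbered mice correlated by -0.255 to 0.155. Per the published methods, mice shared an enriched enclosure or a standard cage. Which mice shared one is not given, so effects of a shared enclosure and of housing cannot be told apart. With the replicate block, member regions with an unadjusted p under 0.05 numbered 0, 0 and 0, member cytosines 9, 3 and 9 (1.98%, 0.615% and 2.04%, against 3.13%, 1.88% and 3.22% of all cytosines), and the Fos body difference of Aged from Young STD turned to 4.93 points. Read depth per value is unknown, which limits every single value.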
